A study of Mus musculus with 12 samples.

Results

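Tubb3, Elavl3, Elavl4, Dcx, Stmn2, Map2, Isl1, Nefl, Nefm and Ina are genes that newborn neurons switch on as they leave the cell cycle. They were taken by gene ID from the table of all 12 libraries, and are 10 of the 53647 gene IDs in it. All 10 were among the 15535 genes with enough transcript to test, so none of them is left out below. The values are TPM, transcript abundances scaled by transcript length and to a fixed sum in each library, so levels can be set side by side between genes. TPM keeps no read depth, so the depth behind each value is unknown and no counting error can be given.

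The libraries hold polyadenylated RNA of whole mouse embryos at embryonic day 9.5. Pregnant mice were irradiated with 30 Gy of X-rays at 5 Gy per minute, and embryos were collected 1 h or 3 h later or came from untreated mothers. The labels give 6 groups of 2 libraries, numbered 1 and 2: p53 +/+ untreated, 1 h and 3 h, and p53 -/- untreated, 1 h and 3 h. They give neither the strain, the structure of the p53 allele, the number of embryos in a library nor whether the libraries of a group are separate embryos. The p-values therefore measure the spread between these libraries, which may be technical. In RNA of whole embryos, fewer neurons and less of these transcripts per neuron cannot be told apart.

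In the neural tube, a dividing progenitor is driven out of the cycle by proneural factors such as the neurogenins, and it then makes the cytoskeleton of a neuron, RNA-binding proteins of the Hu family and the factors that set which neuron it becomes. At this stage of mouse development the first motor neurons, cranial sensory neurons and early interneurons are forming. Tubb3 encodes a neuron-specific beta-tubulin, Map2 and Dcx encode proteins that bind and stabilise microtubules, and Stmn2 encodes a stathmin that binds tubulin in growth cones. Nefl, Nefm and Ina encode the light and medium neurofilament subunits and alpha-internexin, which assemble together into intermediate filaments of the axon. Elavl3 and Elavl4 encode HuC and HuD, which bind transcripts and steady them. Isl1 encodes a LIM homeodomain factor of motor and sensory neurons and is also used outside neurons, in cardiac progenitors and other tissues.

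Proneural factors bind DNA at E-boxes, so the bases before the transcription starts of these genes are shown for the members whose values the results turn on. The sequences are the 250 bases upstream of a RefSeq start on GRCm38.p6, printed 5′ to 3′ along the strand of the gene with every E-box of the letters CANNTG in capitals. RefSeq starts were matched for 7 of the 10 genes, 11 starts in all. Stmn2, Nefl and Nefm had no entry.
Elavl3, chr9:22052024-22052273, minus strand: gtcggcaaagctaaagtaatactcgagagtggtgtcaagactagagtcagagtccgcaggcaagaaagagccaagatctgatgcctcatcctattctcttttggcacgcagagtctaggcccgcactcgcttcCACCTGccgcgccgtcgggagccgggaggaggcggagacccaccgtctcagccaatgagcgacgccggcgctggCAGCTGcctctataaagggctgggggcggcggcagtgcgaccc
Elavl4, chr4:110287528-110287777, minus strand: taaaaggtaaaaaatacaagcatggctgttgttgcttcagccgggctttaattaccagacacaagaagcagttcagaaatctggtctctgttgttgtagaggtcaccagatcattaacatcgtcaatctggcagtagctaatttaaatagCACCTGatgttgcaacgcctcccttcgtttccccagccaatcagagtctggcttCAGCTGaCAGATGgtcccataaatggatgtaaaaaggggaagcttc
Isl1, chr13:116309689-116309938, minus strand: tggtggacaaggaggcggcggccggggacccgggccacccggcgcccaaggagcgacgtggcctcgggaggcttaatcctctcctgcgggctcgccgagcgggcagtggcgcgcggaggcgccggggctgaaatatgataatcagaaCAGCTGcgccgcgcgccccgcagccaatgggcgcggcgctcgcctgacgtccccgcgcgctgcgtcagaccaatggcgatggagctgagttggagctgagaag
Ina, chr19:47014431-47014680, plus strand: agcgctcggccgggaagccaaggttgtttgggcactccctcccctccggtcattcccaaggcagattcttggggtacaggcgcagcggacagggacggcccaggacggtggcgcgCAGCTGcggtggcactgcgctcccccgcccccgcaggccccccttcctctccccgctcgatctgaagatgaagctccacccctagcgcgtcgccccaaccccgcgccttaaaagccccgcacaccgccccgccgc
Tubb3, chr8:123411303-123411552, plus strand: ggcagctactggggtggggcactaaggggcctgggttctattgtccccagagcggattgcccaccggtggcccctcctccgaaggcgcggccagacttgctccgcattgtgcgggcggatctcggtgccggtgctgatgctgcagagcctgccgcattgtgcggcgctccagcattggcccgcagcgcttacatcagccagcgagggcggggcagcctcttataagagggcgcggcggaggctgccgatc

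The form CAGCTG stood in the windows of Elavl3, Elavl4, Isl1 and Ina, 4 of the 7 matched genes and 5 of their 11 starts, where 13% of the 32851 starts of all genes held it. Of these 5 starts, 2 belong to Elavl4 and lie so close that their windows share 1 CAGCTG. In the Elavl3 window shown it began 43 bases before the start, in Ina 135 bases before and in Isl1 103 bases before. In the Elavl4 window shown it began 46 bases before the start and was followed by a CAGATG at 39 bases, a form found before 14.4% of all starts. Elavl4 had other starts whose windows are not shown and held no CAGCTG. The one from chr4:110286835 held 1 E-box, CATCTG, and the one from chr4:110351912 held 0. An E-box of any letters was present at 6 of the 11 starts and at 66.2% of all starts. The Tubb3 window held none, nor did the windows of Dcx and Map2, which are not shown. The p53 half-site, the repeat unit of the p53 response element, was matched at 4 of the 11 starts (3 genes: Elavl4, Tubb3 and Dcx, with 1 match of Dcx shared by both its starts), beside 7.13% of all starts. The CCAAT motif was present at 7 of the 11 starts, beside 33.8%, TATAAA at 3, beside 12.4%, and GGGCGG at 4, beside 32.7%. Both strands were searched, and the forms CAGCTG and CAGATG are counted within CANNTG as well. These are matches of letters and were not measured as binding.

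The genotype labels were checked with Trp53 and with 16 known targets of p53. Trp53 stood at 66.8 to 211 TPM in the libraries labelled wild type and at 79.1 to 265 TPM in those labelled knockout. At 1 h and 3 h every library labelled knockout had more Trp53 transcript than every one labelled wild type, and among untreated libraries number 1 showed the same order (265 against 114 TPM) and number 2 the opposite (79.1 against 211 TPM). The summed level of the p53 targets was 279 to 352 TPM in all libraries labelled wild type and in the untreated ones labelled knockout. It was 753 to 981 TPM at 1 h and 3147 to 3496 TPM at 3 h in those labelled knockout. The response of p53 targets thus ran against the labels, and groups are called by their label throughout. Both 1 h libraries numbered 2 also stood apart, with 19.6% and 19.7% of all TPM from ribosomal protein genes, where the other 10 had 12.0% to 14.2%.

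Across the 12 libraries 9 of the 10 genes shared their 2 highest groups, and all 10 shared the lowest. The summed level of the 10 was 134 and 138 TPM under the wild type label without irradiation, 217 and 294 TPM at 1 h, and 139 and 151 TPM at 3 h. In libraries labelled knockout it was 81.0 and 149 TPM untreated, 190 and 232 TPM at 1 h, and 66.6 and 70.8 TPM at 3 h. The 1 h libraries of both labels were therefore the highest and the 3 h libraries labelled knockout the lowest. The wild type 1 h group had the highest mean for 9 genes and the knockout 1 h group the next for the same 9, and the knockout 3 h group had the lowest mean for all 10. Library 2 labelled wild type at 1 h was the highest single library for 9 genes. The exception in each of these counts was Isl1 for the group means and Elavl4 for the single library.

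**Figure D1:**
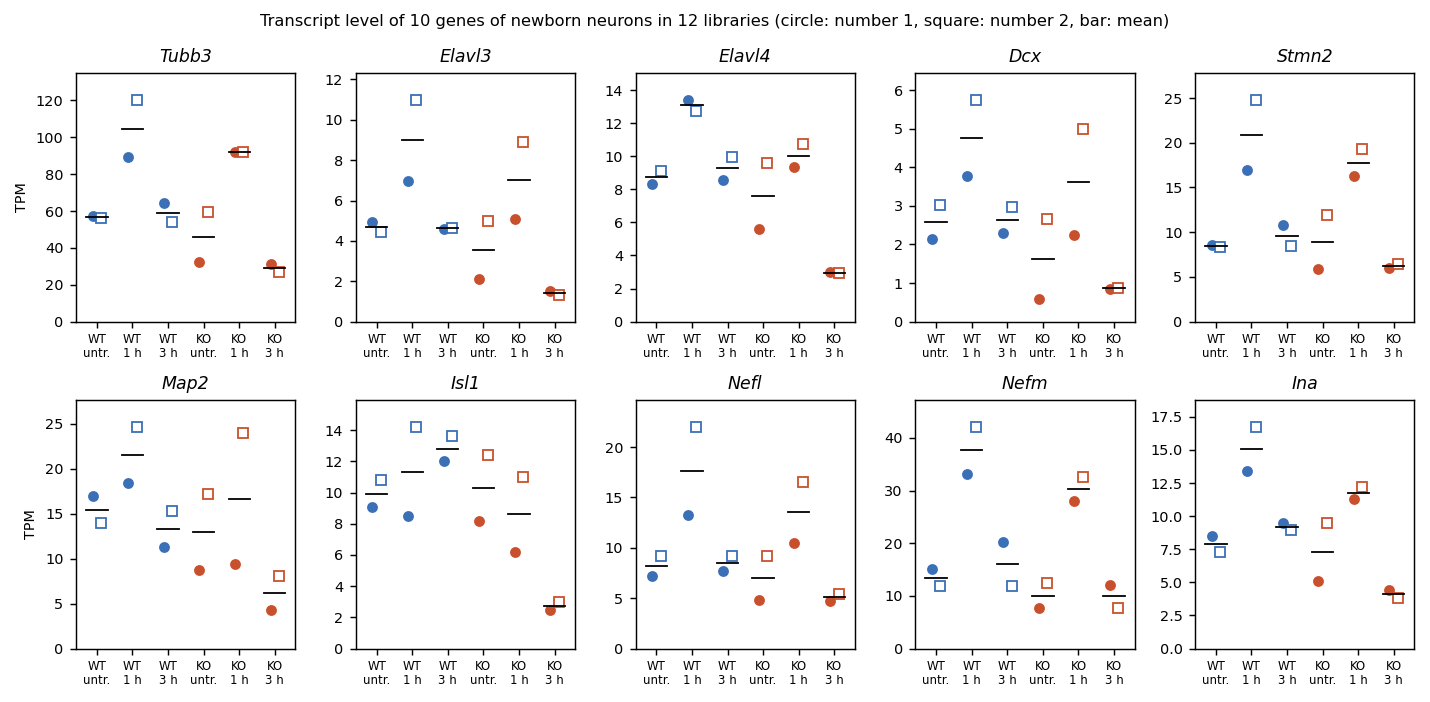
Level of each of the 10 genes (y axis, TPM, linear from 0, a separate scale for each gene) in the 6 groups (x axis). Circles are libraries numbered 1, squares libraries numbered 2, bars the mean of 2; the 1 h groups stand highest for 9 genes, and the 3 h group labelled knockout has the lowest mean for all 10.

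Tubb3 was the most abundant of the 10 in every group. It read 57.3 and 56.4 TPM (libraries 1 and 2) under the wild type label without irradiation, 89.1 and 120.3 TPM at 1 h, and 64.3 and 54.0 TPM at 3 h. In libraries labelled knockout it read 32.3 and 59.4 TPM untreated, 91.8 and 91.9 TPM at 1 h, and 31.4 and 27.0 TPM at 3 h. All 4 libraries at 1 h were thus above all others, and both libraries at 3 h labelled knockout were below all others. Between these ends the untreated groups and the wild type 3 h group overlapped.

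The other microtubule genes were lower and followed the same course with more spread between libraries of a group. Stmn2, in the order above, read 8.60 and 8.39, 16.9 and 24.8, and 10.8 and 8.41 TPM in the libraries labelled wild type, and 5.86 and 11.9, 16.2 and 19.3, and 5.95 and 6.41 TPM in those labelled knockout. All 4 libraries at 1 h were again above the rest, while the lowest value belonged to an untreated library. Dcx was the least abundant of the 10 at 0.58 to 5.75 TPM, and no neighbouring groups in the order of its means were free of overlap. Map2 ranged from 4.29 to 24.7 TPM, and its 1 h libraries labelled knockout read 9.37 and 23.9 TPM, too far apart to place that group. In Map2 the 3 h libraries labelled knockout, at 4.29 and 8.10 TPM, lay below all others.

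Nefm, a gene of the intermediate filament, stood apart most at 1 h. It read 15.0 and 11.9 TPM under the wild type label without irradiation, 33.1 and 42.1 TPM at 1 h, and 20.3 and 11.8 TPM at 3 h. In libraries labelled knockout it read 7.71 and 12.4 TPM untreated, 28.0 and 32.6 TPM at 1 h, and 12.1 and 7.73 TPM at 3 h. The 1 h values were above all others, and the 3 h libraries labelled knockout were level with the untreated ones. Ina read 8.49 and 7.32, 13.4 and 16.8, and 9.45 and 8.96 TPM in the same order of groups labelled wild type, and 5.09 and 9.46, 11.3 and 12.2, and 4.42 and 3.81 TPM in those labelled knockout. Ina had the clearest order of the 10 genes: 4 of the 5 steps between neighbouring group means were free of overlap. Nefl ranged from 4.74 to 22.0 TPM, with its 2 highest values at 1 h in the libraries numbered 2 (22.0 and 16.6 TPM).

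Both Hu genes had all their lowest values at 3 h under the knockout label. Elavl4 read 8.34 and 9.10 TPM untreated, 13.4 and 12.7 TPM at 1 h, and 8.59 and 9.95 TPM at 3 h in libraries labelled wild type. In those labelled knockout it read 5.58 and 9.59 TPM untreated, 9.34 and 10.7 TPM at 1 h, and 3.02 and 2.91 TPM at 3 h. The 3 h libraries labelled knockout were below all others, and the 1 h groups of the labels did not overlap. Elavl3 read 4.92 and 4.44, 6.99 and 11.0, and 4.61 and 4.64 TPM in libraries labelled wild type, and 2.12 and 5.01, 5.08 and 8.91, and 1.52 and 1.33 TPM in those labelled knockout. Its 4 libraries at 1 h were above all others and its 3 h libraries labelled knockout below all others.

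Isl1 had a course of its own. It read 9.08 and 10.8 TPM untreated, 8.48 and 14.2 TPM at 1 h, and 12.0 and 13.6 TPM at 3 h in libraries labelled wild type. In those labelled knockout it read 8.15 and 12.4 TPM untreated, 6.22 and 11.0 TPM at 1 h, and 2.48 and 2.98 TPM at 3 h. It thus showed no peak at 1 h, had its highest group mean at 3 h under the wild type label and fell below all other libraries at 3 h under the knockout label. Against the mean of the other 9 genes over the 12 libraries, its log2(TPM + 1) had the lowest Pearson correlation of the 10 (0.71, against 0.83 for Nefm and 0.99 for Elavl3), given as a description of libraries that share groups and numbers.

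At 1 h after irradiation, 9 of the 10 genes stood higher than in untreated libraries of the wild type label with no overlap, Isl1 being the exception. Such non-overlap upward was seen in 10.6% of all genes tested. The median ratio of 1 h to untreated over the 10 genes was 1.59 for libraries numbered 1 and 2.21 for those numbered 2. In log2(TPM + 1), where differences of low genes come out too small, Nefm differed by 1.42 (SE 0.323), Stmn2 by 1.18 (SE 0.303) and Nefl by 0.99 (SE 0.340). The median of the 10 was 0.82, beside -0.02 for all genes. With limma and Benjamini-Hochberg adjustment over all genes tested, none of the 10 passed (smallest adjusted p = 0.89, Nefm). Across the table the test called 0% of genes, and 618 of the 15535 genes tested, 6 of these 10 among them, had an unadjusted p under 0.05.

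Under the knockout label the same 1 h difference was present for 9 of the 10 genes by group mean, and for 6 without overlap (Tubb3, Elavl3, Stmn2, Nefl, Nefm and Ina). Of all genes, 11.3% stood higher without overlap in this comparison. Nefm differed by 1.53 (SE 0.323), Tubb3 by 1.05 (SE 0.272), Stmn2 by 0.99 (SE 0.303) and Isl1 by -0.25 (SE 0.319) on the log2 scale. The median ratio was 2.31 in libraries numbered 1 and 1.59 in those numbered 2. None passed the adjusted test in limma (smallest adjusted p = 0.195, Nefm), where 0.103% of all genes did, 16 genes, and 1407 had an unadjusted p under 0.05. No difference between the labels in the 1 h response passed for any of the 10. That test called 0.00644% of genes, 1 gene, with 188 at an unadjusted p under 0.05 and none of the 10 among them.

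The summed level of 11 posterior Hox genes, which mark the caudal axis and embryonic age, moved with this difference. It was 72.8 to 91.0 TPM untreated and 115 to 138 TPM at 1 h in libraries labelled wild type, and 14.1 to 19.9 TPM and 104 to 139 TPM in those labelled knockout. Under the knockout label 4 of the 11 rose at 1 h in limma: Hoxc8 by 3.15, Hoxa9 by 2.72, Hoxc6 by 2.57 and Hoxb9 by 2.07 on the log2 scale. These 4 of 11 stand beside 0.103% of all genes, 16 genes, called in either direction. The ribosomal share given above moved with the number of the 1 h libraries. The part of these in the 1 h levels of the neuronal genes was not tested. Without both 1 h libraries numbered 2 the log2 difference under the wild type label was still positive for 9 of the 10 genes, while that of Isl1 became -0.20. Under the knockout label that of Map2 became -0.36.

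At 3 h the wild type label showed levels close to untreated. The median ratio to untreated was 1.10 in libraries numbered 1 and 1.03 in those numbered 2, and 2 genes, Isl1 and Ina, stood above untreated without overlap, where 17.3% of all genes did. None of the 10 passed in limma, nor did any gene (0%, with 524 at an unadjusted p under 0.05 and none of the 10 among them). Against 1 h, 9 of the 10 were lower at 3 h without overlap, as were 11.5% of all genes, at median ratios of 0.639 and 0.482. None passed that test either (0% of all genes, 928 at an unadjusted p under 0.05, 5 of the 10 among them).

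Under the knockout label, Elavl4 and Isl1 fell between untreated and 3 h. Elavl4 went from 7.58 ± 2.83 to 2.96 ± 0.0778 TPM and Isl1 from 10.3 ± 3.03 to 2.73 ± 0.354 TPM (mean ± SD, n = 2). The log2 differences were -1.07 (SE 0.226, limma adjusted p = 0.0174) for Elavl4 and -1.58 (SE 0.319, limma adjusted p = 0.0145) for Isl1. These 2 of 10 stand beside 5.87% of all genes called lower and 6.25% called higher. With the library number as a block the same 2 of 10 passed, beside 18.1% of all genes called lower and 11.1% higher. Of the 10, 6 were below untreated without overlap, as were 31.6% of all genes.

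The other 8 genes did not pass, with log2 differences from -0.94 for Map2, -0.84 for Elavl3 and -0.64 for Ina to -0.34 for Nefl and -0.01 for Nefm. The untreated libraries of this label disagreed: all 10 genes were higher in library 2 than in library 1. Against untreated library 1, 7 of the 10 were lower at 3 h (median ratio 0.920), and against library 2 all 10 were (median ratio 0.429). Without both untreated libraries numbered 2, none of the 10 passed, and without untreated library 1 of the knockout label 4 passed, Tubb3 and Ina being added. The count was 0 without untreated library 2 or either 3 h library of that label.

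The widest contrast was that of 3 h with 1 h under the knockout label, where all 10 genes were lower without overlap, as were 25.2% of all genes. Tubb3 fell from 91.9 ± 0.0636 to 29.2 ± 3.10 TPM, Nefm from 30.3 ± 3.25 to 9.92 ± 3.10 TPM and Elavl4 from 10.0 ± 0.990 to 2.96 ± 0.0778 TPM (SD, n = 2). In limma 7 of the 10 fell: Elavl4 (adjusted p = 0.00438), Tubb3 (0.00656), Ina (0.0122), Nefm (0.0180), Elavl3 (0.0180), Stmn2 (0.0213) and Isl1 (0.0317). Their log2 differences lay between -1.32 for Ina and Isl1 and -1.68 for Elavl3. Nefl, at -1.23, just missed the threshold (adjusted p = 0.0532), and Dcx, at -1.24, and Map2, at -1.21, did not pass (0.105 and 0.144). Of all genes tested, 4.31% were called lower and 6.89% higher. The 11 posterior Hox genes described above for 1 h were all lower in this contrast too. Their median log2 difference was -1.43, beside -1.35 for the 10 genes and -0.06 for all genes, and 5 of the 11 were called lower. The part of the caudal axis or embryonic age in this contrast was not tested.

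With the library number as a block, all 10 passed in this contrast, where 15.8% of all genes were called lower. Of the 11 posterior Hox genes, 9 were called lower with the block. The call of Elavl4 held without any single library, while that of Isl1 was lost without 7 of the 12 libraries in turn and without the filter on low values. The count was 2 without 1 h library 2 of the knockout label, 3 without 3 h library 1 and 1 without 3 h library 2. Without both 1 h libraries numbered 2 it was also 2, and the log2 differences kept their sign for all 10 genes. With only the groups compared in the fit, none of the 10 passed for 3 h against either untreated or 1 h under the knockout label.

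**Figure D2:**
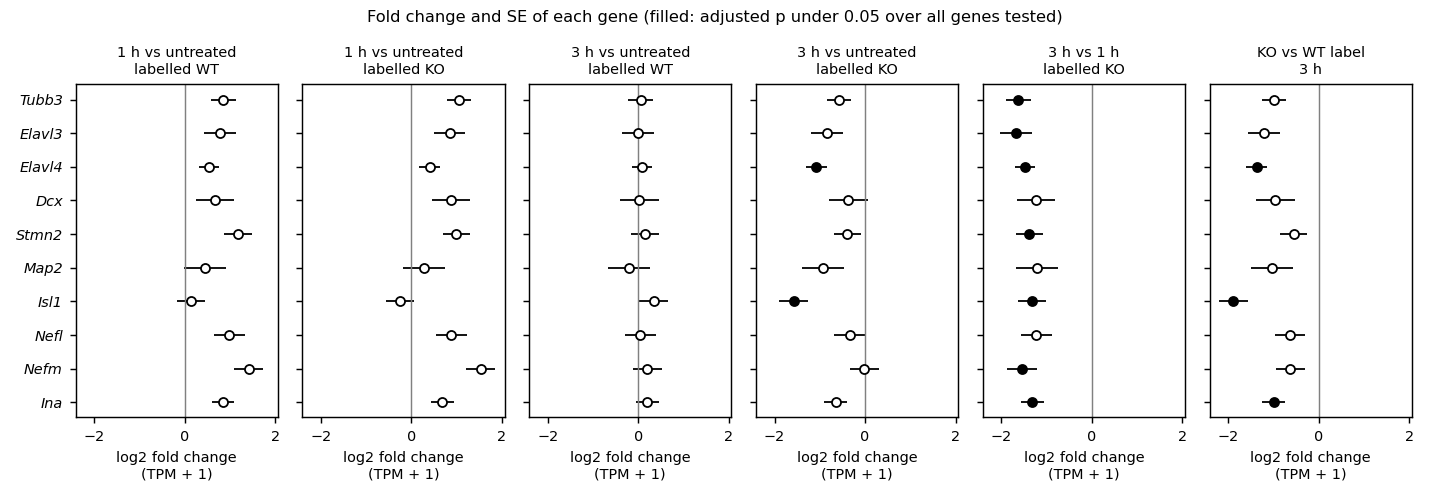
Difference of each gene (rows) in 6 comparisons (panels) on the log2(TPM + 1) scale (x axis); points are fitted differences, lines 1 SE, and filled points passed at an adjusted p under 0.05 over all genes. Filled points appear only in the 3 panels with 3 h libraries labelled knockout: 2 against untreated, 7 against 1 h and 3 against the other label.

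The labels were compared at each time. In untreated libraries the groups overlapped for all 10 genes, and the libraries numbered 1 and 2 gave opposite orders: knockout was lower than wild type for all 10 in number 1 (median ratio 0.582) and higher for 8 in number 2 (median ratio 1.09). These are the numbers in which the order of Trp53 transcript also differed. None passed in limma, where 0.0193% of all genes did, 3 genes, and 186 had an unadjusted p under 0.05, none of the 10 among them. The 3 were the posterior Hox genes Hoxc8 (-2.40), Hoxb9 (-1.95) and Hoxc6 (-1.84), all lower under the knockout label. The part of this difference in the comparisons with untreated libraries was not tested. At 1 h the libraries labelled knockout were lower for 9 of the 10 in number 1 and for all 10 in number 2 (median ratios 0.761 and 0.776). The groups were free of overlap for 3 genes (Elavl4, Nefm and Ina), as for 11.0% of all genes. None passed, beside 0.0386% of all genes, 6 genes, with 210 at an unadjusted p under 0.05 and none of the 10 among them.

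At 3 h the libraries labelled knockout were lower for all 10 genes in both numbers, at median ratios of 0.423 and 0.463, and without overlap for 9, as were 36.2% of all genes. Isl1 was lower by 1.89 on the log2 scale (difference -1.89, SE 0.319, limma adjusted p = 0.00724), and Elavl4 by 1.37 (-1.37, SE 0.226, adjusted p = 0.00655). Ina also passed, with a difference of -0.999 (SE 0.253, adjusted p = 0.0402), but its call was lost without 10 of the 12 libraries in turn, without the filter on low values and with only the groups compared in the fit. These 3 of 10 stand beside 5.07% of all genes called lower. Tubb3, at -0.99, and Elavl3, at -1.22, did not pass (adjusted p = 0.0539 and 0.0645). With the library number as a block 8 of the 10 passed, all but Stmn2 and Nefm, where 18.5% of all genes were called lower. The count without the block was 0 without wild type library 2, 1 without knockout library 1 and 5 without either untreated library labelled knockout.

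The difference of the 3 h responses between labels was negative for all 10 genes, from -1.91 for Isl1 (SE 0.451) and -1.15 for Elavl4 (SE 0.320) to -0.22 for Nefm. None passed in limma (adjusted p = 0.0620 for Isl1 and 0.109 for Elavl4), where 0.856% of all genes were called lower and 3 of the 10 had an unadjusted p under 0.05. With the library number as a block Isl1 and Elavl4 passed (adjusted p = 0.00340 and 0.0279), 2 of 10 beside 7.39% of all genes called lower. Nefm, the gene with the greatest 1 h difference under both labels, had the smallest 3 h difference between the responses.

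Of 22 other genes of newborn neurons, 21 were tested, and 19 of them were higher at 1 h under the wild type label and 15 under the knockout label (median log2 difference 0.42 and 0.32), none past the test. Stmn3, a stathmin, differed by 0.81 and 0.93. Cntn2 differed by 1.19 under the wild type label, where 2 of the 21 were lower. Under the knockout label 6 of the 21 were lower, and 1 of them, Dpysl3 (-0.88), had the smallest p of the list. From untreated to 3 h under the knockout label 4 of the 21 fell: Rbfox3, which encodes the neuronal splicing factor NeuN, by 1.09 (log2 difference -1.09), Dpysl5, a collapsin response mediator, by 0.99 (-0.99), Tubb2b, a beta-tubulin, by 0.80 (-0.80) and Rtn1, a reticulon, by 0.79 (-0.79). Of all genes, 5.87% were called lower in this comparison. With the block 7 of the 21 fell, where 18.1% of all genes were called lower and 11.1% higher. Against 1 h, 6 of the 21 fell, beside 4.31% of all genes. Among them were Nhlh1, a helix-loop-helix factor of newborn neurons (-1.87), Stmn3 (-1.60), Tubb2b (-1.24) and Rtn1 (-1.07). With the block 11 of the 21 fell, beside 15.8% of all genes called lower and 13.4% higher. The median of the 21 against untreated was -0.57, near the -0.61 of the 10 genes above and beside -0.12 for all genes. Gap43, a growth cone protein of the same list, did not follow: it read 42.1 ± 8.70 TPM untreated and 51.0 ± 2.62 TPM at 3 h (chosen after its values were seen).

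Factors that set the kind of neuron were tested for 15 of 16 genes. At 1 h 9 of the 15 were higher than untreated and 6 lower under each label, none past the test. Their median log2 difference was 0.16 under the wild type label and 0.04 under the knockout label. The medians of the 10 genes above were 0.82 and 0.86. Under the knockout label 5 fell from untreated to 3 h, among them Lhx5 of early interneurons (-1.64), Phox2a of autonomic and cranial motor neurons (-1.20), Onecut1 (-1.20) and Isl2, the paralog of Isl1 in motor neurons (-1.16). Of all genes, 5.87% were called lower against untreated. Against 1 h, 4 fell and 1 rose, beside 4.31% of all genes called lower and 6.89% higher. Tbx20, which is expressed in cranial motor neurons and in the heart, rose by 1.62. With the block 8 fell from untreated, beside 18.1% of all genes. From 1 h, 9 fell and 1 rose with the block, beside 15.8% and 13.4% of all genes.

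The proneural factors and Notch ligands that stand upstream of these genes were all 9 tested. From untreated to 3 h under the knockout label 4 fell, among them Neurog2 (log2 difference -1.97), Neurog1 (-1.57) and Neurod4 (-1.41). Neurod1 rose by 1.71. Of all genes, 5.87% were called lower and 6.25% higher. With the block 5 of the 9 fell and 1 rose, beside 18.1% and 11.1% of all genes. Neurod4 was named after its values were seen. Neurog2 also passed in the difference of the 3 h responses (adjusted p = 0.00581 in limma). Between untreated and 1 h none of the 9 passed under either label without the block. With the block 1 of the 9 fell under the knockout label, for which no share of all genes is given here. On the log2 scale 5 of the 9 were higher at 1 h and 4 lower under each label. The median difference was 0.12 under the wild type label and 0.48 under the knockout label. Neurog2, which was lower, read 8.25 ± 0.0141 TPM untreated and 7.32 ± 0.304 TPM at 1 h under the knockout label.

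Genes of neural progenitors went down with them at 3 h. Of 12 tested, 8 fell and 1 rose under the knockout label against untreated, both without and with the block, at a median of -1.65. Without the block 5.87% of all genes were called lower and 6.25% higher, and with it 18.1% and 11.1%. The summed level of the 12 was 340 to 367 TPM at 3 h and 670 to 735 TPM untreated. Pax6 (-3.42), Pou3f2 (-3.07), Sox3 (-2.82) and Sox1 (-1.74), transcription factors that hold cells as progenitors, had the smallest p of this list. The gene that rose was Notch1, which encodes the receptor (1.31, named after its values were seen). Against 1 h, 6 of the 12 fell and Notch1 rose, beside 4.31% of all genes called lower and 6.89% higher. With the block 9 of the 12 fell and 1 rose, beside 15.8% and 13.4% of all genes. Neural crest genes fell for 5 of 9 against untreated: Tfap2b (-1.70), Tfap2a (-1.55), Sox10 (-1.48), Twist1 (-1.22) and, named after its values were seen, Foxd3 (-0.90). With the block 6 of the 9 fell. Both counts stand beside the shares of all genes given for the progenitors against untreated.

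Summed levels of genes of heart and red cells were higher in the same libraries. The summed level of 9 cardiac genes was 1667 to 2204 TPM in untreated and 2816 to 3090 TPM in 3 h libraries labelled knockout, with 1 of 9, Myl4, rising by 0.72. That count stands beside 6.25% of all genes called higher. With the block 4 of the 9 rose and 2 fell, beside 11.1% of all genes called higher and 18.1% lower. Hand2, a factor of cardiac progenitors, fell from 1 h to 3 h by 1.05 (-1.05), while Myl4, Myl7 and Actc1, which encode contractile proteins, rose. These 3 higher and 1 lower of the 9 stand beside 6.89% of all genes called higher and 4.31% lower. With the block 6 of the 9 rose and 1 fell from 1 h, beside 13.4% and 15.8% of all genes. The cardiac sum stands beside the fall of Isl1, a gene known in heart progenitors as well as in neurons. The summed level of 7 genes of primitive red cells was 1936 to 5022 TPM untreated and 11090 to 13370 TPM at 3 h. Of the 7, 4 rose, beside 6.25% of all genes, and 5 with the block, beside 11.1%. No marker of these lists was at 0 in every library. The part of these other tissues in the lower neuronal levels was not tested.

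**Figure D3:**
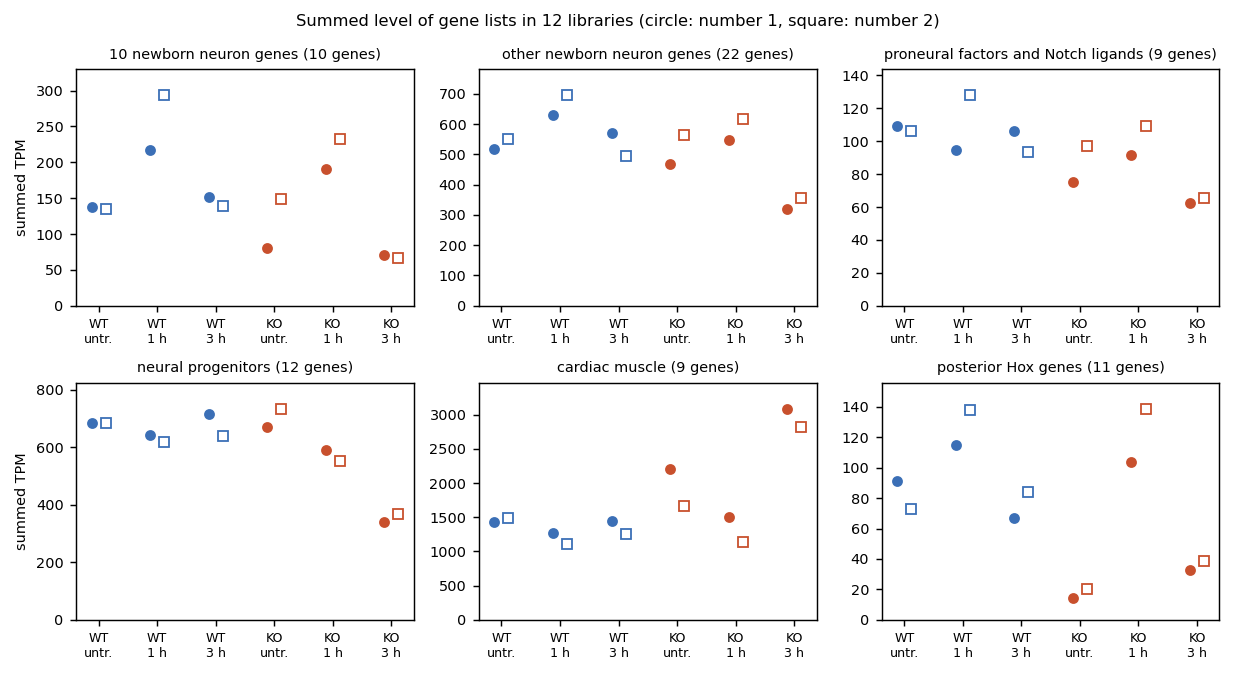
Summed level (y axis, TPM, linear from 0) of the 10 genes and of 5 other lists in the 12 libraries (x axis: group; circles are libraries numbered 1, squares libraries numbered 2). In 3 h libraries labelled knockout the neuronal, proneural and progenitor lists stand at their lowest and the cardiac list at its highest, while the posterior Hox list is lowest in untreated libraries labelled knockout.

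The genes outside the list whose log2(TPM + 1) followed the mean of the 10 most closely over the 12 libraries, at a mean TPM of at least 5, were Dll3 (Pearson r = 0.98), Ckb (0.98), 6330403K07Rik (0.97), Nudt4, Tagln3, Prmt8, Rtn1, Fez1, Pfn2 and Fabp7 (0.95 to 0.96). These values describe 12 libraries that share groups and numbers. Dll3, a Notch ligand of cells entering differentiation, read 0.89 to 12.6 TPM, and its log2 difference from 1 h to 3 h under the knockout label was -2.14, given with no test because it was chosen for following the 10 genes in these libraries. Tagln3, a neuronal calponin-like protein, read 5.51 to 37.2 TPM, and Ckb, the brain creatine kinase, 97.5 to 358 TPM. Fabp7 is a fatty acid binding protein of radial progenitors.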

How the data were processed

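RNA-seq of polyadenylated RNA, with paired reads of 75 bp per the labels' protocols, gave 12 libraries in 6 groups of 2. The authors deposited TPM for 53647 gene IDs. The columns sum to between 999999.1 and 1000000.8, so depth is unknown and no interval for counting error can be given. The submitters' processing notes name the build GRCm39 and, without their roles, RSEM 1.3.3, STAR 2.7.3a, R 4.3.3, DESeq2 1.42.1 and HTSeq 0.12.3. The annotation release and the strand setting were not given in the sources used here, and reads shared with overlapping genes or close paralogs may be split. Symbols were matched by gene ID to an annotation of an earlier build (52093 IDs, 97.1%).

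Genes reaching 1 TPM in 2 or more libraries, 15535 in all, were fitted in limma 3.58.1 (R 4.3.3) on log2(TPM + 1), with 1 mean for each group, 12 libraries in the fit (6 residual degrees of freedom) and a spread moderated by its trend on expression. Tests were two-sided, with Benjamini-Hochberg adjustment over all genes tested, and adjusted p under 0.05 made a call. The fit was tried on simulated data with independent noise in each library and no effect of the library number. That trial therefore does not cover the correlation of same-numbered libraries given below. Between both libraries of a group the correlation was 0.935 to 0.974, and no pair shared more than 1.10% of its values. No library was thus a copy of another, which does not show that they are separate embryos. Library numbers come from the labels. Deviations from group means correlated between same-numbered libraries at 0.327 to 0.796 in all 15 pairs of groups, so the numbers were taken as pairs, and a fit with the number as a replicate block (5 residual degrees of freedom) stands beside the fit without it where calls differ.

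Alternatives were a pseudocount of 0.1, no filter, median-of-ratios size factors, only the groups compared, no trend, the replicate block and each library left out in turn. The 10 genes, the other lists and the tests were chosen with earlier results of these data known. All 10 genes are named in every comparison. From each other list the text names up to 4 called genes by rank of p (the top 2 in a list with no call), and it names the 10 genes with the highest correlation to the mean of the 10. Single values of 2 listed genes are not reported here. Promoter sequences are from RefSeq (GRCm38.p6), and only bases before the start were used. Figures were drawn with matplotlib 3.10.9.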

Additional observations from a re-analysis of the deposited data

Results flagged for a closer look

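Isl1 and Ina stood apart because their libraries moved in opposite directions under the labels between untreated and 3 h. All libraries labelled wild type were above the untreated ones at 3 h, and all labelled knockout were below. Taken singly, 17.3% of all genes were above without overlap under the wild type label and 31.6% below under the knockout label. The share of all genes doing both was not counted. For Isl1 the difference of the responses was -1.91 on the log2 scale (limma adjusted p = 0.0620, and 0.00340 with the replicate block). For Ina it was -0.84 (limma adjusted p = 0.302, and 0.135 with the block). Neither passed without the block, and Ina did not pass with it.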

How the results depend on the processing

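The counts of genes called rest on 2 libraries a group. No gene of the 10 was called under any alternative in the 3 comparisons within the wild type label, in 1 h against untreated under the knockout label, in the labels untreated or at 1 h, or in the difference of the 1 h responses. Leaving out 1 library at a time, the count ranged from 0 to 4 for 3 h against untreated and from 1 to 8 for 3 h against 1 h under the knockout label, from 0 to 5 for the labels at 3 h and from 0 to 1 for the difference of the 3 h responses. With only the groups compared in the fit, which leaves fewer libraries to estimate the spread, the first 2 counts were 0 and 0 and the last was 1. The replicate block gave 8 for the labels at 3 h and 2 for the difference of the 3 h responses, and it moved no other count by over 1.5 times. Size factors gave 1 for that difference, and they brought the median shift of all genes from -0.12 to 0.00 (3 h against untreated, knockout label) and from -0.16 to 0.00 (labels at 3 h). In alternatives chosen after seeing the data, leaving out both untreated libraries numbered 2 gave 0 for 3 h against untreated, and leaving out both 1 h libraries numbered 2 gave 2 for 3 h against 1 h and 1 for the difference of the 3 h responses. Other causes of these changes were not tested.

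Some log2 differences changed sign, none of them of a gene called in that same comparison. Size factors gave Nefm 0.11 at 3 h against untreated under the knockout label. Without both untreated libraries numbered 2 that comparison gave Dcx 0.24, Stmn2 0.0650, Nefl 0.0583 and Nefm 0.30, Isl1 at 1 h under the knockout label became 0.0247, and the difference of the 3 h responses became 0.0338 for Dcx and 0.25 for Nefm. Without both 1 h libraries numbered 2, Isl1 at 1 h under the wild type label became -0.20 and Map2 under the knockout label -0.36. Leaving out 1 library at a time, Isl1 at 1 h ranged from -0.20 to 0.48 (wild type label) and from -0.62 to 0.11 (knockout label), and Map2 at 1 h from -0.36 to 0.91 (knockout label). For 3 h against untreated under the knockout label Dcx ranged from -0.97 to 0.24, Stmn2 from -0.84 to 0.0650, Nefl from -0.74 to 0.0583 and Nefm from -0.32 to 0.30. For the difference of the 3 h responses Dcx ranged from -0.998 to 0.21, Nefl from -0.78 to 0.0174 and Nefm from -0.58 to 0.15. TPM keeps no depth, so what depth limits cannot be given.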
